A study of Rattus norvegicus with 9 samples.

Results

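Cytosolic ribosomal proteins build the 2 subunits of the ribosome, the particle that reads mRNA into protein. In a primary branch of the rat saphenous artery, the platform's gene symbols gave 40 such genes, 28 of the large subunit (Rpl and Rplp symbols) and 12 of the small subunit (Rps symbols), out of 10411 genes with a single symbol on the array. Members were chosen by symbol alone: Rpl or Rps followed by a number, or Rplp0 to Rplp2, without the S6 kinases and without symbols of pseudogene copies or paralogs ending in l. Each gene was represented by its brightest probeset, and 3 of the genes (Rpl7, Rpl14 and Rps24) had a second, dim probeset.

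RNA was hybridized to 9 Affymetrix RAE230A arrays, 3 for each of 3 groups of male rats aged 16 weeks. The groups were untreated Wistar-Kyoto rats (WKY, the normotensive strain), WKY rats given adrenocorticotropic hormone subcutaneously for 4 weeks from week 12 of life (ACTH), and untreated spontaneously hypertensive rats (SHR, an inbred strain with raised blood pressure). The labels give the ACTH dose as 0.1 mg/kg/day. The study's methods state another dose, so the dose is uncertain. Every array carries a pool of RNA from more than 1 rat, and the whole vessel wall was extracted. Neither a vehicle-treated WKY group nor a second normotensive strain was among the arrays, so injection and hormone, or strain and blood pressure, cannot be told apart. In whole tissue, fewer cells of a type and less RNA per cell cannot be told apart either.

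Ribosomal protein mRNAs are among the most abundant of growing and resting cells, and each ribosome needs about equal numbers of most of its proteins. Their translation is controlled together through mTOR kinase, by way of a tract of pyrimidines (C or T) at the mRNA's 5′ end, the 5′ terminal oligopyrimidine or TOP motif. In artery wall, ribosome supply is known for its part in the growth of smooth muscle cells.

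The start-site sequences are printed because the pyrimidine tract is the feature these genes are known to share and the rule did not use it. RefSeq promoter entries (build GRCr8) were held for 35 of the 40 genes, and those of Rpl7, Rpl23a, Rpl27, Rpl30 and Rps29 were not. Each window below has 30 bases, 15 before the annotated start of transcription and the first 15 of exon 1, on the gene's own strand. Capitals mark the longest run of pyrimidines in the window. Rpl14, Rpl34, Rpl35 and Rps3a begin with C followed by at least 4 pyrimidines, whereas in Rpl12, Rpl23, Rps6, Rps9 and Rps23 the annotated start does not.
Rpl14, chr8:129163605-129163634, + strand: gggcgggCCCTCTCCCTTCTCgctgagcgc
Rpl34, chr2:221962269-221962298, - strand: CCCCTTCCTTTTCCTCTTCCggggacggtg
Rpl35, chr3:43165907-43165936, - strand: cgCCCCTTCCTCTTTCTCTCgaaccgggcg
Rps3a, chr2:173827028-173827057, - strand: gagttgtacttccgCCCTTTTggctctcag
Rpl12, chr3:36661925-36661954, + strand: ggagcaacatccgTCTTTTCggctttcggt
Rpl23, chr10:83272170-83272199, - strand: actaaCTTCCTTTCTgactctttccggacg
Rps6, chr5:106420526-106420555, - strand: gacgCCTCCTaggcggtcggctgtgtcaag
Rps9, chr1:74430423-74430452, - strand: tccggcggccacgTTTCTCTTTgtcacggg
Rps23, chr2:23814502-23814531, + strand: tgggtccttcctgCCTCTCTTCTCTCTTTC

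A start of C followed by at least 4 pyrimidines, searched on the gene's strand at the annotated start only, was present in 11 of the 35 genes (31.4%), 9 of 24 in the large and 2 of 11 in the small subunit. It was present in 2.63% of all 33469 promoter entries. A pyrimidine run of at least 8 bases anywhere in the window was held by 23 of 35 genes (65.7%) and by 11.4% of all entries, and the median longest run was 9 bases against 4. In Rps23 the run lies across the annotated start and is 17 bases long, yet the annotated start base is not C. A match describes letters at an annotated start, which may differ from the start used in artery.

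The deposited MAS5 signals of these probesets were high. The mean log2 signal over the 9 arrays was at least 10 for 34 of the 40 genes and for 561 of the 9038 probesets kept, with medians of 11.17 over the members and 7.27 over the kept probesets. The brightness of a probeset depends on its probes as well as on the mRNA, so the members were not ranked by abundance. Rpl7a and Rpl3, the latter placed near the peptidyl transferase centre, lay between 4195 and 5787 on all arrays, and Rpl5 between 3285 and 4171. At the dim end were Rpl39, a protein of the exit tunnel with 50.2 to 105, and Rps4y2, a paralog of Rps4x, with 29.1 to 60.1. The probeset of Rpl30 read only 9.6 to 28.7 and was not kept (a probeset was kept when its third-highest signal reached 45), so 39 members were tested, 27 of the large and 12 of the small subunit. Another probeset lists Rpl30 together with its copies and read 2118 to 3148. It stayed outside the members because it carries several symbols.

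**Figure D1:**
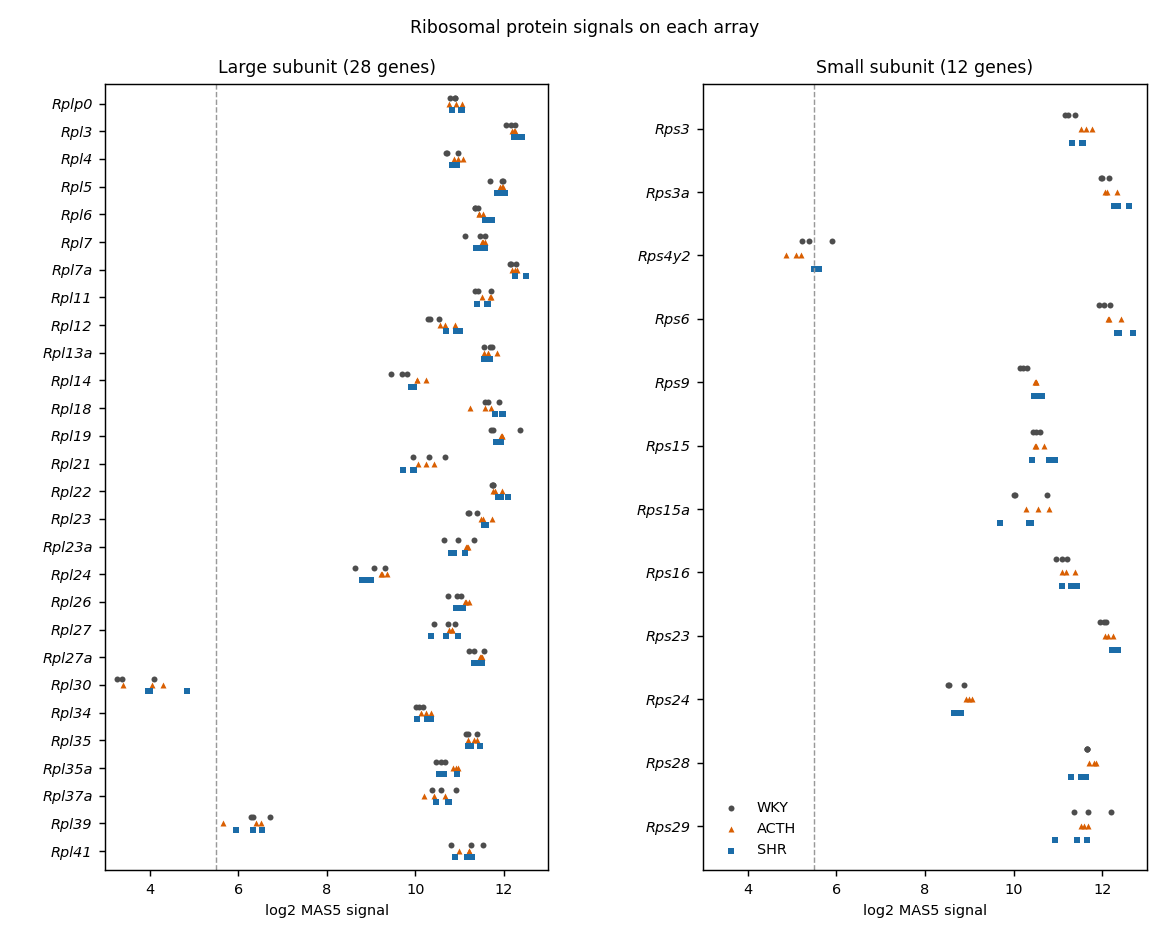
Each row is a ribosomal protein gene and each point an array, with log2 MAS5 signal on the x axis, WKY as circles, ACTH as triangles and SHR as squares. The dashed line marks a signal of 45. In most rows the 3 groups lie within a narrow band, and Rpl30, Rpl39 and Rps4y2 lie near or below the dashed line.

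Replicate arrays of a group were close for most members. The median SD of log2 signal within groups was 0.137 over the 39 members (0.062 to 0.369) and 0.226 over all kept probesets. The members were brighter than most kept probesets (median log2 signals of 11.17 and 7.27). Values over all kept probesets, here and below, are therefore not matched to the members for brightness. Where an SE or adjusted p is given, it comes from limma, fitted on log2 signals of all kept probesets and adjusted by the Benjamini-Hochberg method, with an adjusted p under 0.05 as the threshold for a call. Over the 3 groups the F test called 0 of 39 members and 4.12% of probesets. The study's methods describe the 3 pools of a group as separate biological samples, so the spread is that between pools of rats.

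SHR arteries were compared with WKY arteries to ask which genes differ in the genetic model of hypertension. No ribosomal protein gene was called in either direction by limma (0 of 39), while 2.04% of all kept probesets were called, 0.952% higher and 1.08% lower. At an unadjusted p under 0.05, 6 of 39 members were found, all higher in SHR, against 16.4% of all probesets in either direction. The lowest adjusted p was 0.153, for Rpl12. In size, the median change was 0.09 on the log2 scale for the large subunit and 0.20 for the small subunit, against 0.00 for all kept probesets, and 28 of 39 members (71.8%) lay above 0 against 49.4% of probesets.

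Rpl12 (1375181_at), a protein at the base of the stalk where elongation factors bind, gave 1489, 1294 and 1238 in WKY, 1623, 1897 and 1495 in ACTH and 1926, 2039.5 and 1655 in SHR. All SHR and all ACTH arrays lay above all WKY arrays. The log2 change in SHR against WKY was 0.48 ± 0.15 (SE, n = 3 arrays per group; 95% interval 0.14 to 0.82; limma adjusted p = 0.153), which is 1.4-fold.

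Rps6 (1367573_at), the small-subunit protein phosphorylated by S6 kinases, had signals of 3881, 4602 and 4186 in WKY, 4513, 5531 and 4529.7 in ACTH and 6649, 5134 and 5315 in SHR. SHR arrays lay above WKY arrays without overlap, and ACTH overlapped both. The change in SHR against WKY was 0.43 ± 0.16 (SE; 95% interval 0.08 to 0.77; limma adjusted p = 0.22). Rps3a (1367606_at), its neighbour in direction, read 4093, 4006 and 4577 in WKY and 6235, 5268 and 4896 in SHR, a change of 0.37 (limma adjusted p = 0.255).

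Rps9 (1387888_at), which binds 18S rRNA early in assembly, read 1266, 1127 and 1178 in WKY, 1449.5, 1433 and 1445 in ACTH and 1584, 1404 and 1462 in SHR. Both hypertensive groups lay above WKY on every array. Rpl23 (1398885_at), at the face between the subunits, read 2337, 2351 and 2668 in WKY, 2859.8, 3365 and 2955 in ACTH and 3082, 3036 and 3012 in SHR, again without overlap. For SHR against WKY the changes were 0.32 (limma adjusted p = 0.25) for Rps9 and 0.31 (limma adjusted p = 0.272) for Rpl23.

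Signals lower in SHR than in WKY were fewer and more scattered. Rpl21 (1398764_at) read 1632, 978 and 1268 in WKY and 848, 996 and 983 in SHR, a change of -0.43 ± 0.19 (SE; limma adjusted p = 0.305) with overlapping arrays. Rps29 (1387890_at) read 4714, 2624 and 3299.7 in WKY and 1954, 2750.3 and 3206 in SHR, a change of -0.41 (limma adjusted p = 0.404), and WKY 1 stood well above the other arrays. Rps28 (1388481_at) was the single member whose SHR arrays (2517, 3194 and 2947) all lay below WKY (3237, 3213 and 3221), and its change was -0.17 (limma adjusted p = 0.573).

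Arrays did not overlap for 9 members higher in SHR (Rpl6, Rpl12, Rpl14, Rpl22, Rpl23, Rps3a, Rps6, Rps9 and Rps23) and 1 lower, that is 23.1% and 2.56% of 39. Among all kept probesets the shares were 9.69% and 9.64%.

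ACTH-treated arteries were compared with untreated WKY arteries for the hormone-induced model. No member was called (0 of 39 by limma), against 1.25% of all probesets (0.553% higher, 0.697% lower), and 7 members had an unadjusted p under 0.05, 6 higher and 1 lower, against 12.5% of probesets. The median change was 0.10 for the large and 0.13 for the small subunit, against 0.02 for all kept probesets, and 31 of 39 members (79.5%) lay above 0 against 54.1%. This comparison shares the WKY arrays with the previous one, so a low reading in WKY enters both.

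Rpl14 (1387887_at), a large-subunit protein, gave the lowest adjusted p. It read 702, 826 and 900.1 in WKY, 1054, 1056 and 1207 in ACTH and 1001, 955 and 953 in SHR. ACTH was highest, SHR intermediate and WKY lowest, with no overlap between any of the groups. The change in ACTH against WKY was 0.46 ± 0.14 (SE; 95% interval 0.14 to 0.77; limma adjusted p = 0.181), or 1.37-fold. In SHR against WKY it was 0.27 (limma adjusted p = 0.377).

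Rps3 (1371299_at), at the mRNA entry channel, read 2407, 2670.4 and 2271 in WKY and 3159, 2937 and 3463 in ACTH, a change of 0.38 ± 0.14 (SE; limma adjusted p = 0.288). Rps24 (1369966_a_at) read 372, 366 and 468 in WKY and 487, 530.2 and 510.5 in ACTH, a change of 0.35 (limma adjusted p = 0.342). Both had ACTH arrays wholly above WKY. Rpl35a (1398760_at), a large-subunit protein, lay higher likewise, with 1523, 1414 and 1627 in WKY against 1855, 1982 and 1926 in ACTH (0.34, limma adjusted p = 0.371). In Rpl12, Rpl23 and Rps9, described above, the changes in ACTH were 0.32, 0.32 and 0.28 (limma adjusted p = 0.445, 0.349 and 0.397).

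In the opposite direction, Rps4y2 (1388398_at) read 42, 37.2 and 60.1 in WKY, 34.1, 36.7 and 29.1 in ACTH and 45.1, 49 and 45.4 in SHR. ACTH arrays lay below both other groups, by -0.46 ± 0.19 (SE; limma adjusted p = 0.345) against WKY, at signals near the filter. Rps4y2 was kept through its SHR arrays and 1 WKY array, and no ACTH array reached 45. Its fall therefore supports nothing about the members, and it is the 1 lower member in the count by unadjusted p. Rpl39, also dim, read 77.6, 81.1 and 105 in WKY and 50.2, 91.3 and 84.1 in ACTH (-0.26, limma adjusted p = 0.744). Rpl18 (1367623_at) and Rpl37a each had a change of -0.20 with overlapping arrays. In this comparison 10 members did not overlap above WKY (Rpl6, Rpl12, Rpl14, Rpl23, Rpl26, Rpl35a, Rps3, Rps9, Rps24 and Rps28), 25.6% of 39 against 10.7% of probesets, and 1 lay below (Rps4y2), against 9.77% of probesets.

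**Figure D2:**
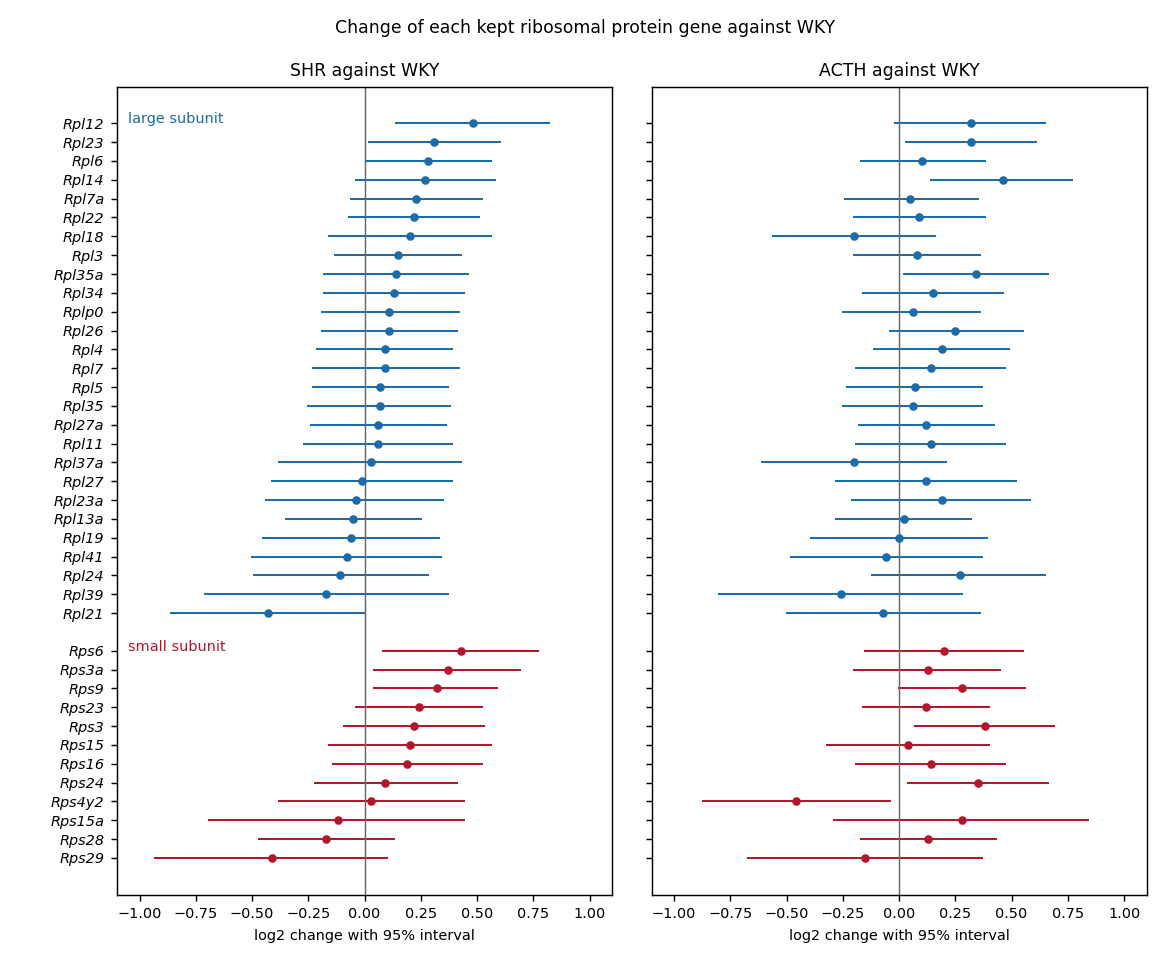
Points are log2 changes of the 39 kept genes in SHR (left) and ACTH (right) against WKY and bars their 95% intervals from the limma fit, large subunit in blue above and small subunit in red below, ordered by the change in SHR. Most points lie to the right of 0, and no bar reaches 1 or -1.

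SHR and ACTH arteries were set against each other to ask where the models differ. No member was called by limma (0 of 39), against 3.41% of all probesets (1.55% higher in SHR, 1.86% lower). An unadjusted p under 0.05 was found for 2 members higher in SHR, Rpl18 and Rps4y2, against 17.3% of probesets in either direction. Rps4y2 was kept through its SHR arrays and 1 WKY array, so its place in this count supports nothing about the members. The median change was -0.02 for the large subunit and 0.05 for the small subunit (all kept probesets -0.02). The sign of both subunit medians depended on scaling: with quantile normalization they were -0.15 and -0.05, and with median centring 0.02 and 0.09.

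Rpl18 read 2399, 3326 and 3058 in ACTH and 3978, 4036 and 3536 in SHR, a change of 0.41 ± 0.16 (SE; limma adjusted p = 0.229), and its WKY arrays (3044, 3204 and 3806) lay across both groups. Rps4y2 had the lowest adjusted p (0.49 ± 0.19, SE; limma adjusted p = 0.207), but it was kept through its SHR arrays and 1 WKY array, no ACTH array reached 45, and so its difference supports nothing about the members. Rpl24, a protein of a bridge between subunits, read 596, 607 and 652 in ACTH and 479, 442 and 507 in SHR (-0.38, limma adjusted p = 0.298). Rps15a had a change of -0.40 (limma adjusted p = 0.469) with overlapping arrays. No overlap was seen for 3 members higher in SHR (Rpl6, Rpl18 and Rps4y2) and 7 lower (Rpl14, Rpl21, Rpl23a, Rpl24, Rpl26, Rps24 and Rps28), against 11.7% and 13.3% of probesets. Among the 3 higher members, Rps4y2 again supports nothing, since its SHR arrays helped to keep it.

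Each interval bounds the change of a single gene under the fit without covariates. It is not adjusted for the number of intervals and does not cover differences between scan days. In each of the 3 comparisons the 95% interval of all 39 members lay within -1 and 1 on the log2 scale, that is within a 2-fold change either way, and this held for 86.1% (SHR against WKY), 88.7% (ACTH against WKY) and 85.9% (SHR against ACTH) of all kept probesets. Within -0.5 and 0.5 lay the intervals of 20, 21 and 22 of the 39 members, against 29.1%, 32.2% and 28.2% of all kept probesets. Rplp0, the scaffold of the P stalk, had changes of 0.11 in SHR and 0.06 in ACTH against WKY (limma adjusted p = 0.735 and 0.919). Changes of the size seen in Rpl12 or Rps6 were therefore not distinguishable from 0 after adjustment, and were not shown to be absent.

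Taken as a group, the members' summed signal made up 3.01%, 2.79% and 3.02% of the summed array signal in WKY, 3.11%, 3.29% and 3.18% in ACTH and 3.16%, 3.16% and 3.18% in SHR. Every WKY array lay below every ACTH and SHR array, with means of 2.94 ± 0.131, 3.19 ± 0.0872 and 3.16 ± 0.012% (SD, n = 3). For the large subunit, WKY arrays had a mean log2 signal of 10.88 ± 0.113, ACTH arrays of 10.98 ± 0.0588 and SHR arrays of 10.96 ± 0.0146 (SD), and these groups overlapped. For the small subunit the means were, in the same order, 10.58 ± 0.0837, 10.70 ± 0.0359 and 10.70 ± 0.0333, with WKY below both others on every array. The small-subunit mean minus the large-subunit mean was -0.299 ± 0.0467, -0.281 ± 0.0312 and -0.264 ± 0.0191 (SD), so the balance of the subunits' signals differed between groups by no more than the spread within WKY.

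**Figure D3:**
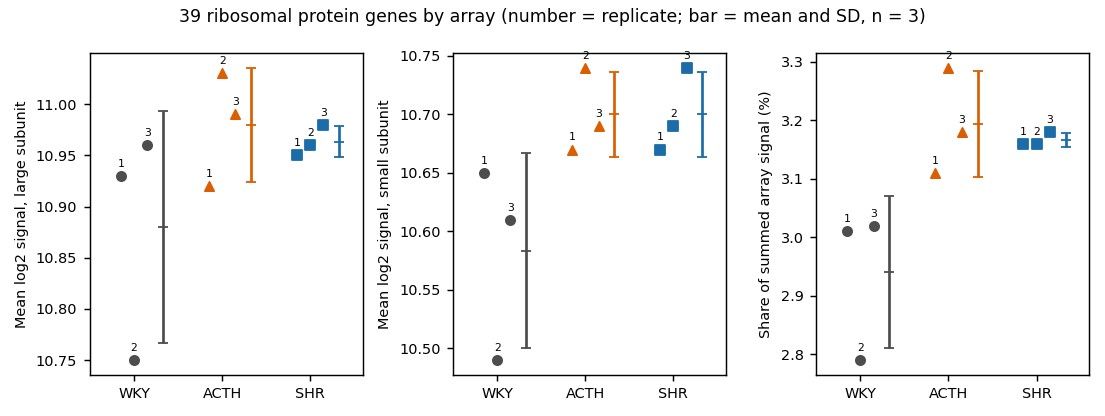
Points are arrays, numbered by replicate, and bars the mean and SD of 3 arrays per group, for the mean log2 signal of the large subunit (left) and the small subunit (middle) and for the members' share of summed array signal in percent (right). The y axes do not start at 0, and WKY 2 is the lowest point in all 3 panels.

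WKY 2 had the lowest mean log2 signal of the members, 10.67 against 10.85 in both other WKY arrays, and the lowest signal of all 9 arrays for 14 of 39 members, against 9.17% of kept probesets. Without it the large-subunit median fell from 0.09 to 0.02 in SHR against WKY and from 0.10 to 0.04 in ACTH against WKY, while those of the small subunit were 0.18 and 0.13. Without SHR 2 the small-subunit median in SHR against WKY was 0.11. The share of array signal in WKY 1 and WKY 3 also lay below that of every ACTH and SHR array.

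Measures of RNA quality and processing moved with the groups. The GAPDH 3′/5′ ratio, which rises as RNA or its copies are shortened, averaged 5.41 ± 0.541 for WKY arrays, 4.05 ± 0.436 for ACTH and 4.17 ± 0.86 for SHR (SD, n = 3), and that of beta-actin 12.1 ± 2.06, 9.01 ± 0.655 and 8.8 ± 0.408. With the GAPDH ratio as a covariate, no member was called and the medians of the large and small subunit were 0.08 and 0.23 in SHR and 0.11 and 0.18 in ACTH against WKY. The arrays were scanned on 4 days. SHR 1, SHR 2 and WKY 2 shared a day, the ACTH arrays shared a day with SHR 3, and WKY 1 and WKY 3 were each scanned alone, so no day held both ACTH and WKY. Blocking on scan day leaves WKY 2 alone to set SHR against WKY, and the large-subunit medians were 0.21 in SHR and 0.23 in ACTH against WKY.

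Marker genes of the cell types a vessel sample can hold were summed on each array. Smooth muscle markers (6 of 6 kept) gave sums from 15358 to 17758 for WKY arrays, from 15709 to 17179 for ACTH and from 17089 to 18832 for SHR, and none of the 6 was called. Macrophage markers (6 of 7 kept) gave 372 to 1201, 777 to 1248 and 843 to 1007. In ACTH against WKY their median change was 1.44, 5 of 6 lay above 0 and 4 of 6 did not overlap, and C1qc, a complement component, was called higher (limma adjusted p = 0.0439). In SHR against WKY 6 of 6 lay above 0 with a median of 0.83, none of them called. Medians of the macrophage, endothelial, adipocyte and Schwann lists were above 0 in both comparisons against WKY. Those of smooth muscle were below 0 in both, and those of fibroblasts were -0.10 in SHR and 0.06 in ACTH. Endothelial markers (4 of 6 kept) gave 1531 to 1798, 1385 to 1623 and 1028 to 1327, a sum in which Vwf is the brightest probeset. Vwf was called lower in SHR (-1.28, limma adjusted p = 0.0112), while Kdr, Pecam1 and Tie1 had changes of 0.87, 0.54 and 0.31 (limma adjusted p = 0.05, 0.206 and 0.461), none called, and the list's median was 0.42. Fibroblast markers (4 of 4 kept) gave 6048 to 7276, 5483 to 6378 and 5616 to 6609, with Col1a1 called lower in ACTH (-1.91, limma adjusted p = 0.00797). Lum had a change of -0.38 there, and Dcn and Pdgfra of 0.50 and 0.53 (limma adjusted p = 0.527, 0.171 and 0.386). Schwann markers (3 of 5 kept, none called) gave 1361 to 2080.4, 1838 to 1928 and 1713 to 2075. Adipocyte markers (2 of 6 kept) gave 47.1 to 184, 191 to 372 and 162 to 204, with Cfd called higher in ACTH (limma adjusted p = 0.0344). The single skeletal muscle marker kept of 6, Acta1, gave 420.1 to 574, 668 to 743 and 858 to 919 and was called higher in SHR (limma adjusted p = 0.0102), and none of 4 T cell markers was kept. The part of RNA quality, scan day and cell makeup in the small ribosomal differences was not tested beyond the values given here.

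The changes were also split by the start motif. The median change of the 11 genes with C and 4 or more pyrimidines at the annotated start was 0.13 in SHR and 0.06 in ACTH against WKY, against 0.10 and 0.14 for the other 24, and no test was run on this split.

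Ribosomal proteins read only by probesets that list the gene together with its own copies add 22 genes, whose copies cannot be separated on the array. All of them but Rpl36 were kept, and with the bright probeset of Rpl30 this gave 22 probesets. None of these 22 was called in any comparison, and their medians were 0.11 in SHR and 0.11 in ACTH against WKY. Rpl38 (1375632_at) read 1757, 1547 and 1657 in WKY, 1530.1, 1651 and 1644 in ACTH and 2186, 2109.8 and 2286 in SHR. SHR lay above both other groups, by 0.41 against WKY (limma adjusted p = 0.144), the largest rise of the 22. In SHR against WKY 16 of the 22 (72.7%) lay above 0, against 49.4% of all kept probesets, and 6 lay below. The bright probeset of Rpl30 read 3148, 2418 and 2476 in WKY and 2335, 2118 and 2338 in SHR, lower without overlap (-0.24, limma adjusted p = 0.487). Rps25 had the largest fall (-0.30, limma adjusted p = 0.519), with overlapping arrays.

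Of 12 ribosomal components outside the symbol rule, 4 were kept. Rpsa, the laminin receptor and small-subunit protein, read 2826, 3398 and 3453 in WKY, 3328, 3640.2 and 3156 in ACTH and 4676, 4402 and 4096 in SHR, highest in SHR without overlap (0.45 ± 0.14, SE; limma adjusted p = 0.148 against WKY). Rack1, a scaffold on the small subunit, had changes of 0.18 and 0.13 (limma adjusted p = 0.545 and 0.787), and Rpl7l1, an assembly paralog of Rpl7, of 0.23 and 0.15 (limma adjusted p = 0.454 and 0.736). Rpl3l, the muscle paralog of Rpl3, read 53.6, 46.8 and 51.1 in WKY, 20.6, 25.4 and 28.0 in ACTH and 29.2, 52.2 and 38.0 in SHR, and was called lower in ACTH (-1.04 ± 0.21, SE; limma adjusted p = 0.0437). That call was lost in 13 of 21 alternatives, with adjusted p from 0.0175 to 0.613, and with all non-control probesets it was 0.221. Rpl3l was kept through its WKY arrays alone, the group where it was high, so the call is given as a description.

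The rest of the translation machinery was described by lists. Of the elongation and termination factors 11 of 13 were kept and none called, with medians of 0.19 in SHR and 0.10 in ACTH against WKY. Eef1a1, which brings aminoacyl-tRNA to the ribosome, had changes of 0.29 and 0.10 (limma adjusted p = 0.377 and 0.859), and Eef2, which moves the ribosome along, of 0.13 and 0.26 (limma adjusted p = 0.692 and 0.54). Of the initiation factors 35 of 43 were kept and none called, with medians of 0.13 and 0.06. Eif4a1, the helicase that unwinds mRNA leaders, read 137, 118 and 122 in WKY, 148, 174 and 185 in ACTH and 238, 176 and 180.1 in SHR. Its WKY arrays were the lowest, and the change in SHR was 0.65 ± 0.16 (SE; limma adjusted p = 0.0772).

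Other mRNAs of the TOP class were kept for 15 of 24, with medians of 0.13 in SHR and 0.13 in ACTH against WKY and none called against WKY. All of them but Hnrnpa1, Naca, Gas5 and Vim also stand in the lists of ribosomal components, elongation, initiation or assembly factors. The medians of these lists are therefore not separate evidence. Gas5, a noncoding host of small nucleolar RNAs, read 136, 138 and 123 in WKY, 234, 169 and 232 in ACTH and 100.3, 113 and 92.3 in SHR. ACTH was highest and SHR lowest without overlap. It was called in SHR against ACTH (-1.04 ± 0.16, SE; limma adjusted p = 0.00797), and 2 of 23 alternatives lost the call, all non-control probesets (0.0689) and scan day as a block (0.128).

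Upstream of the ribosome, none of 46 kept assembly factors (of 64 listed) and none of 13 kept genes of RNA polymerase I, which makes rRNA (of 21 listed), were called in any comparison. Medians against WKY were 0.06 in SHR and 0.07 in ACTH for assembly and 0.05 and 0.08 for polymerase I. Ncl, the nucleolar protein nucleolin, read 617, 407 and 522 in WKY and 342, 327 and 425 in SHR (-0.49, limma adjusted p = 0.237). Polr2f, a subunit shared by the nuclear polymerases, read 151, 152 and 168 in WKY and 254, 204 and 250.3 in SHR (0.58, limma adjusted p = 0.0891).

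Of 27 kept genes of mTOR, S6 kinase and MYC control (of 34 listed), 1 was called. Ddit4, an inhibitor of mTOR signalling whose transcription glucocorticoids raise, read 393, 279 and 377 in WKY, 151, 123 and 121 in ACTH and 215, 127 and 209 in SHR. Its WKY arrays lay above all others, and the change was -1.40 ± 0.22 in ACTH (SE; limma adjusted p = 0.0165) and -0.95 in SHR (limma adjusted p = 0.0616). The ACTH call was lost in 8 of 23 alternatives (adjusted p 0.00345 to 0.435), among them leaving out WKY 1, WKY 3, ACTH 2 or ACTH 3, and the direction held in all of them. The list's medians were -0.02 and -0.04, and Mtor itself had changes of -0.02 and -0.20 (limma adjusted p = 0.966 and 0.661).

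Mitochondrial ribosomal proteins, which build the separate ribosome inside mitochondria, were kept for 70 of 71 genes. Their median change was 0.08 in SHR and -0.08 in ACTH against WKY and 0.14 in SHR against ACTH, and 24 of 70 (34.3%) lay above 0 in ACTH against WKY, where 79.5% of the cytosolic members did. The difference between the 2 kinds of ribosome was not tested. Mrpl4 read 497, 499 and 504 in WKY, 439.6, 437 and 491 in ACTH and 242, 261 and 284 in SHR, lowest in SHR without overlap. It was called in SHR against WKY (-0.93 ± 0.13, SE; limma adjusted p = 0.00424) and against ACTH (-0.80, limma adjusted p = 0.00875), with 23 alternatives tried for each. The call against WKY was lost when scan day was a block (-0.99, adjusted p = 0.145) and with the GAPDH ratio as a covariate (-0.88, 0.0908), and the call against ACTH with scan day as a block (-0.68, 0.24) and with all non-control probesets (-0.80, 0.0626).

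**Figure D4:**
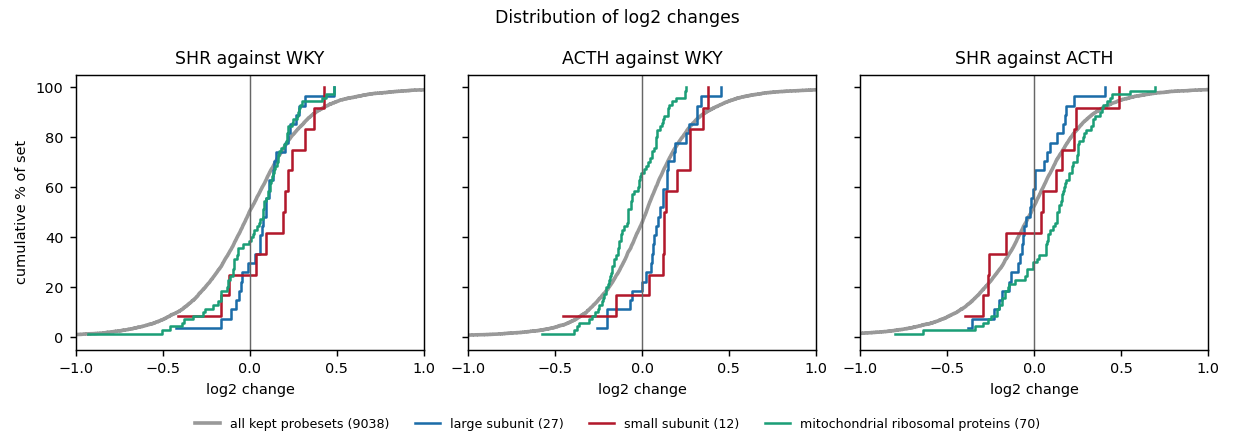
Lines give the cumulative percent of each set (y axis) at or below a log2 change (x axis) in the 3 comparisons, for all kept probesets, the large subunit, the small subunit and the mitochondrial ribosomal proteins. In ACTH against WKY the lines of both cytosolic subunits lie mostly to the right of the mitochondrial line.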

How the data were processed

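The authors' MAS5 values, deposited as linear intensity scaled to a target of 150, were taken as given. Such scaling removes any difference in total mRNA. Labelling ran 2 cycles of amplification. The first cDNA was primed with oligo(dT), which favours 3′ ends, and the second with random primers. Of 15923 probesets, 57 controls were left out, and the 9038 of the other 15866 whose third-highest signal reached 45 were kept. This rule stands in for the authors' present calls, which were not used here. The platform annotation gives 7676 of these a single symbol.

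Log2 intensities were fitted to the 3 groups with limma 3.58.1 in R 4.3.3 (lmFit, contrasts.fit, eBayes without trend), two-sided p-values were adjusted by Benjamini-Hochberg over all 9038, with a threshold of 0.05, and intervals of 95% used 10.5 degrees of freedom. The fit was tested on simulated data. No list test was run. A list is described by its counts and median.

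Members given with their values were drawn from the 3 largest changes up and down per subunit and comparison. Others came from the 4 brightest and dimmest per subunit, with the gene not kept. Not all genes that met these rules are described, Rpl19 and Rps15 among them. From other lists up to 4 genes of lowest adjusted p were eligible. Rplp0, Eef1a1, Eef2, Ncl, Mtor, Rpl38, Rps25 and the bright probeset of Rpl30 were named for their roles or values after these were seen. The members and lists were chosen with earlier results of these data known. Depth has no meaning for arrays, and 3 arrays per group limit the precision. Alternatives were other filters, scalings, offsets, variance models, covariates, blocks, the methods' tests, each array left out and, chosen after seeing the data, a mean signal of at least 1000 and the probesets that list copies.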

Additional observations from a re-analysis of the deposited data

How the results depend on the processing

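No ribosomal protein gene was called in any comparison under any alternative run with limma or the methods' tests without moderation (0 of those tested each time). Against WKY the lowest adjusted p came with a mean signal of at least 1000, which left 593 probesets (0.0623 in SHR and 0.0747 in ACTH). In SHR against ACTH that filter gave 0.0996, and the lowest adjusted p was 0.0646, with array weights in the fit. Among the 593 bright probesets, limma called 16 in SHR against WKY, 49 in ACTH against WKY and 50 in SHR against ACTH. Their median changes were 0.04, -0.03 and 0.07. With scan day as a block the lowest adjusted p was 0.35, 0.577 and 0.484 in the same order. At the methods' unadjusted thresholds 3 members passed in SHR against WKY (Rpl6, Rpl23 and Rps9), 3 in ACTH against WKY (Rpl14, Rpl23 and Rps9) and 1 in SHR against ACTH (Rpl6), against 5.49, 4.16 and 6.62% of probesets. With scan day as a block 25, 0 and 34 of all probesets were called in place of 184, 113 and 308.

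The subunit medians are small, so their alternatives are given as values. Quantile normalization put the small-subunit median at 0.21 in ACTH against WKY and the medians in SHR against ACTH at -0.15 (large) and -0.05 (small). Scan day as a block put the large-subunit median at 0.21 in SHR and 0.23 in ACTH against WKY. With the probesets that list copies, the small-subunit median was 0.09 in SHR against WKY and -0.08 in SHR against ACTH. The cause was not tested. Leaving out each array gave 0.02 to 0.15 (large) and 0.11 to 0.22 (small) in SHR against WKY, 0.04 to 0.13 and 0.09 to 0.17 in ACTH against WKY, and -0.09 to -0.01 and 0.01 to 0.09 in SHR against ACTH, with 0 members called each time. In 1845 alternative values of single members none changed its call, since none passed the threshold.

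No sign was seen that the replicate numbers pair the arrays. Deviations of same-numbered arrays correlated between -0.0723 and 0.132, and those of differently numbered arrays between -0.165 and 0.141. With 3 arrays per group such correlations cannot show that pairing is absent. With the replicate number as a block 0 members were called, and the medians were 0.09 and 0.20 in SHR against WKY. Dim probesets limit Rpl30, Rpl39 and Rps4y2.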
